A study of Mus musculus with 4 samples.

Results

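Semaphorins, their plexin and neuropilin receptors and the MICAL and CRMP proteins that act downstream of them were followed in mouse bone marrow-derived macrophages. The members were all gene symbols in the deposited tables that start with Sema and a digit, Plxn, Plxd, Mical or Dpysl, together with Nrp1, Nrp2 and Crmp1. This gave 44 of the 23259 symbols with a value. They comprise 20 semaphorins, 9 plexins, 2 plexin domain-containing genes, 2 neuropilins, 6 MICAL genes and 5 CRMP genes. RNA was sequenced from 2 libraries labelled Sema6D-/-, a genotype that lacks a functional gene for the membrane semaphorin Sema6D, and from 2 libraries labelled wild type. Cells of both labels were from C57BL/6 mice of 7 weeks and had received IL-4, a cytokine of alternative macrophage activation, for 24 h. The titles of the libraries labelled Sema6D-/- begin with W and those of the libraries labelled wild type with K, so every direction is that of the genotype label. A swap of the labels would reverse every direction and could not be checked, since the Sema6d values did not separate them. No label says whether the 2 libraries of a label came from separate animals or cultures, and p-values describe only how these samples scatter, and that scatter may be technical.

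Semaphorins are secreted or membrane-bound proteins that share an extracellular sema domain, and most of them signal through plexins. Secreted class 3 semaphorins mostly need a neuropilin as the binding part of the receptor, whereas membrane-bound class 4, 5 and 6 semaphorins bind plexins directly. Plexins carry an intracellular domain that switches off small Ras-family GTPases, and MICAL enzymes and CRMP proteins carry the signal to actin and microtubules. Membrane-bound semaphorins can also signal backwards through their own cytoplasmic tails, which is the reverse signalling that the series title names for Sema6D. In the immune system Sema4D, Sema4A and Sema7A are best known as ligands on leukocytes, and plexin-A1 as a receptor of dendritic cells and macrophages.

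All values are FPKM, fragment numbers scaled by transcript length and sequencing depth, which allows levels of different genes to be compared. They summed to 563890 and 552107 under the label Sema6D-/- and to 527755 and 538679 under wild type. The low values stand in steps, from which a depth of about 8390000 to 9390000 fragments per library was estimated, so that 1 fragment on a transcript of 1 kb is worth between 0.107 and 0.119 FPKM. Differences are given as Sema6D-/- minus wild type on the scale of log2(FPKM + 1) with their SE, and were tested with limma over the 10115 genes that averaged 1 FPKM or more, adjusted by the Benjamini-Hochberg method over all of these genes. This scale understates the change of genes with low values. Of the genes tested, 4.80% were higher and 4.91% lower in libraries labelled Sema6D-/- at an adjusted p under 0.05, and the median difference was 0.00287. Macrophage markers were present in every library, with 5269 and 5302 summed FPKM over 8 markers under the label Sema6D-/- and 5888 and 5599 under wild type. Most of each sum came from Lyz2 and Cd68, and Mertk, the lowest, had 9.16 to 12.1 FPKM. Emr1 was higher and Itgam, Cd14 and Lyz2 lower. Neutrophil markers summed to 802 and 660 FPKM over 11 genes under Sema6D-/- and to 264 and 254 under wild type. Most of each sum came from S100a8 and S100a9. Of the 11 genes, 6 were higher (S100a8, S100a9, Ngp, Ltf, Lcn2 and Mpo), Csf3r was lower, and none was at 0 in all libraries. Mpo had 2.73 and 2.68 FPKM under Sema6D-/- and 1.075 and 0.757 under wild type. Its mean under wild type was below the filter of 1 FPKM, which it cleared through the libraries labelled Sema6D-/-, so its call is not a test. The eosinophil genes Prg2 and Ccr3 and the basophil gene Mcpt8 were also higher, and the integrin gene Itgax, from the dendritic cell list, was lower. Prg2 had 8.03 and 3.88 FPKM under Sema6D-/- and 0.958 and 0.936 under wild type. Mcpt8 had 2.095 and 2.022 FPKM under Sema6D-/- and 0.319 and 0.156 under wild type. Both cleared the filter of 1 FPKM only through the libraries labelled Sema6D-/-, so their calls are not a test. The part of these cell types in the differences below was not tested, and in bulk RNA fewer cells of a type cannot be told apart from less RNA per cell. Markers of B cells, T or NK cells, endothelium and erythroid cells all had means under 1 FPKM, with Pax5 and Ncr1 among those at 0 in all 4 libraries.

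Sema6d, the gene named by the genotype, was near the floor of the measurement under both labels. It had 0.106 and 0.315 FPKM in the libraries labelled Sema6D-/-, against 0.166 and 0.389 FPKM in those labelled wild type. By the estimated depth and the longest annotated transcript this is about 6 and 18 fragments against 10 and 24. The ranges overlap, and the spread within a label was wider than the distance between labels. Sema6d lies under the filter of 1 FPKM and was tested in a fit without a filter, where it did not pass (difference -0.08 ± 0.16 (SE), adjusted p = 1). Gene-level values do not show which exons were read, so they do not check the deletion. The other class 6 genes differed in level. Sema6a was listed at 0 in all 4 libraries, and Sema6b was the only class 6 semaphorin with a mean of at least 1 FPKM.

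Of the 44 members, 18 had a mean of at least 1 FPKM and 26 did not. The 18 were the semaphorins Sema4a, Sema4b, Sema4c, Sema4d and Sema6b, the plexins Plxna1, Plxnb2, Plxnc1 and Plxnd1, both neuropilins, Plxdc1 and Plxdc2, the MICAL genes Mical1, Mical2, Micall1 and Micall2, and the CRMP gene Dpysl2. Each of the 18 reached 1 FPKM in every library. Within a label, Sema3c and Micalcl also had a mean of at least 1 FPKM under wild type, where Sema3c averaged 0.0910 FPKM in Sema6D-/- and 1.18 FPKM in wild type and Micalcl 0.837 FPKM in Sema6D-/- and 1.004 FPKM in wild type, with overlapping libraries for Micalcl. Another 10 members had means between 0.1 and 1 FPKM, 9 were above 0 with means under 0.1, and 7 were listed at 0 in all libraries. A value of 0 can be a failed estimate in these tables, where even the housekeeping gene Gapdh is listed at 0 in 3 libraries, and is given here only as listed. The plexins are the class with the clearest split, with 4 members between 28.8 and 113 FPKM and 5 members that never exceeded 0.762 FPKM.

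**Figure D1:**
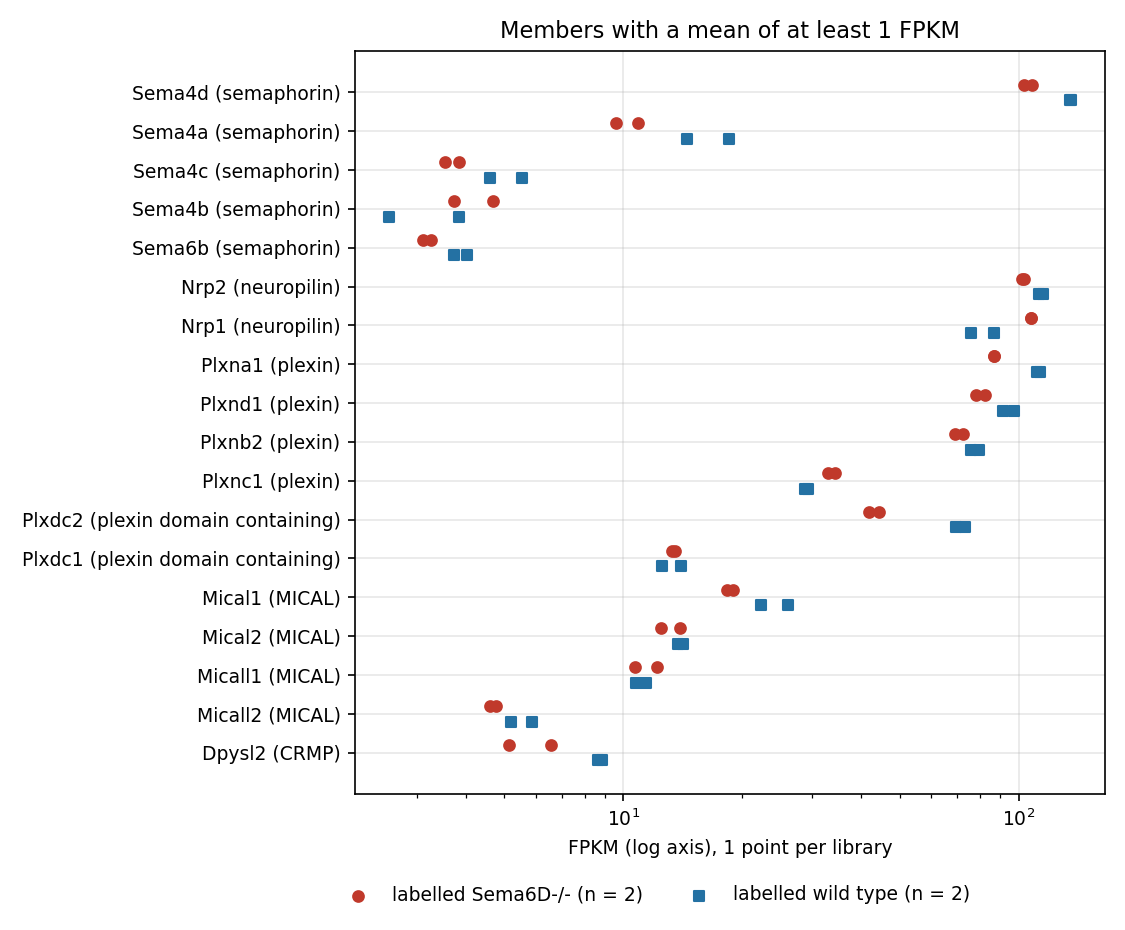
FPKM of the 18 members with a mean of at least 1 FPKM, on a log axis, with 1 point per library (red circles, labelled Sema6D-/-, n = 2; blue squares, labelled wild type, n = 2). Sema4d, Nrp1, Nrp2, Plxna1, Plxnd1 and Plxnb2 sit between 69.0 and 136 FPKM. The points of 14 of the 18 members are separated by label, as are those of 56.2% of all genes tested. Plxdc2, Sema4a, Plxna1, Sema4d and Nrp1 are among the 14.

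Of the 18 members tested, 1 was higher and 4 were lower in the libraries labelled Sema6D-/-, which is 27.8% against 9.72% of all genes tested. Nrp1 rose, and Plxdc2, Sema4a, Plxna1 and Sema4d fell. The median difference over the 18 members was -0.21, and 13 of the 18 differences were below 0. Values did not overlap between labels for 14 of the 18 (77.8%), against 56.2% of all genes tested. The members were chosen by name, with earlier results of these data known, and these counts describe the 18 without a test of the group. The call of Plxna1 was also made in the fit without a filter (adjusted p = 0.032), where the other 4 were not (adjusted p from 0.101 to 0.364). With eBayes without an intensity trend, Plxdc2 and Plxna1 passed, and Sema4d, Sema4a and Nrp1 did not (adjusted p = 0.0513, 0.0805 and 0.0811).

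Among the ligands, Sema4d supplied most of the semaphorin message. Sema4D is a membrane-bound ligand of plexin-B1, plexin-B2 and CD72 that can be shed from the cell surface. It had 103 and 108 FPKM in the libraries labelled Sema6D-/-, against 135 and 136 FPKM under wild type. Its mean ranked 613th of 23259 genes. It fell by 22.0% (106 ± 3.5 FPKM under Sema6D-/- and 135 ± 0.40 under wild type, SD, n = 2 each; difference -0.36 ± 0.05, adjusted p = 0.0123). Both libraries labelled Sema6D-/- lay below both labelled wild type. The call was lost without Sema6D-/- replicate 1 (adjusted p = 0.099) or 2 (adjusted p = 0.0625), while the difference stayed between -0.39 and -0.32. Sema4d made up 82.7% and 82.7% of the summed semaphorin FPKM under Sema6D-/- and 80.7% and 82.2% under wild type. The sum itself was 124.6 and 130.5 FPKM in the libraries labelled Sema6D-/-, against 167.3 and 164.9 FPKM in those labelled wild type.

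Sema4a encodes a membrane-bound semaphorin of dendritic cells and macrophages that acts on T cells. It had 9.57 and 10.9 FPKM in the libraries labelled Sema6D-/-, against 18.5 and 14.5 FPKM in those labelled wild type. It fell by 37.9% (difference -0.63 ± 0.13, adjusted p = 0.041), and its ranges did not overlap. The spread between the wild type libraries was wide, at 2.81 FPKM (SD). The call was kept without wild type replicate 2 and lost without any other single library (adjusted p = 0.238 and 0.144 without Sema6D-/- replicates 1 and 2, and 0.0948 without wild type replicate 1).

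The other 3 expressed semaphorins were low. Sema4c, a class 4 ligand of plexin-B2, had 3.55 and 3.83 FPKM under Sema6D-/- and 5.54 and 4.59 under wild type, which did not overlap and did not pass (difference -0.37 ± 0.11, adjusted p = 0.124). Sema6b, a transmembrane ligand of A-type plexins, had 3.12 and 3.27 FPKM under Sema6D-/- and 3.73 and 4.03 under wild type (difference -0.22 ± 0.10, adjusted p = 0.254). Sema4b was the expressed semaphorin with a positive difference, with 4.68 and 3.72 FPKM under Sema6D-/- and 2.56 and 3.84 under wild type (difference 0.32 ± 0.18, adjusted p = 0.352). Its ranges overlapped. Sema4c is counted where an antisense gene, D430040D24Rik, shares exons with it, and the strand setting of the counting is not given in the sources used here.

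The sequences before the start sites of Sema4a, which passed the test, and of Sema4b, which did not, are shown. These are the expressed class 4 semaphorins whose window ends at the outermost annotated start. The windows are the 250 bases before the annotated start, from RefSeq on GRCm38.p6, the assembly of mm10. They are written 5′ to 3′ on the strand of the gene, with CG dinucleotides in capitals.
Sema4a, chr3:88461183-88461432, minus strand: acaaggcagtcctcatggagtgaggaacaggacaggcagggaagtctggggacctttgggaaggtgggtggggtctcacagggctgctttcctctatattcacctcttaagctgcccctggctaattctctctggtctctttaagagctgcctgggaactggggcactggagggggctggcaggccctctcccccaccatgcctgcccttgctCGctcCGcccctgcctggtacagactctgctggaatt
Sema4b, chr7:80186620-80186869, plus strand: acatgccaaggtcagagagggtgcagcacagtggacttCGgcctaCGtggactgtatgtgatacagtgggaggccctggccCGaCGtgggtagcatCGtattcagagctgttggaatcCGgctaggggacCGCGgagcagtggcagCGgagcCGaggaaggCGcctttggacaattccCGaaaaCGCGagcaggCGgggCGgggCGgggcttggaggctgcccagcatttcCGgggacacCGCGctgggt
The Sema4a window holds 2 CG dinucleotides and the Sema4b window 20. The ratio of observed to expected CG was 0.09 for Sema4a and 0.815 for Sema4b, and 34.5% of 27025 RefSeq windows of this length reached 0.6. Of the 34 members with a window, 18 reached 0.6 (52.9%), among them 9 of 14 members with a mean of at least 1 FPKM and 6 of 12 under 0.1 FPKM or at 0. A window ends at the outermost annotated start, within 100 bases, in only 18 of these 34 members, and those of Sema4d and Sema4c lie at starts inside the gene. On both strands, the STAT6-type letters TTC and GAA with 4 bases between them were in 5 of the 34 windows (14.71%, against 5.86% of all windows), 1 of them among expressed members (Micall1). The PU.1-type letters GAGGAAGT were in 0 of 34 and in 2.44% of all windows. These matches describe letters and not binding.

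The neuropilins, the binding receptors of class 3 semaphorins and co-receptors of VEGF, were both abundant and went different ways. Nrp1 had 107 and 107 FPKM in the libraries labelled Sema6D-/-, against 75.7 and 86.9 FPKM in those labelled wild type. It rose by 32.0% (107 ± 0.088 FPKM under Sema6D-/- and 81.3 ± 7.9 under wild type, SD, n = 2 each; difference 0.40 ± 0.07, adjusted p = 0.0306). The call was lost without Sema6D-/- replicate 1 (adjusted p = 0.188) or 2 (adjusted p = 0.166). Nrp2 had 102 and 103 FPKM under Sema6D-/- and 112 and 115 under wild type, which did not overlap and did not pass (difference -0.15 ± 0.04, adjusted p = 0.106). Nrp1 thus made up 51.2% and 50.9% of the summed neuropilin FPKM under Sema6D-/- and 40.2% and 42.9% under wild type. The class 3 ligands had low values in the same libraries.

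**Figure D2:**
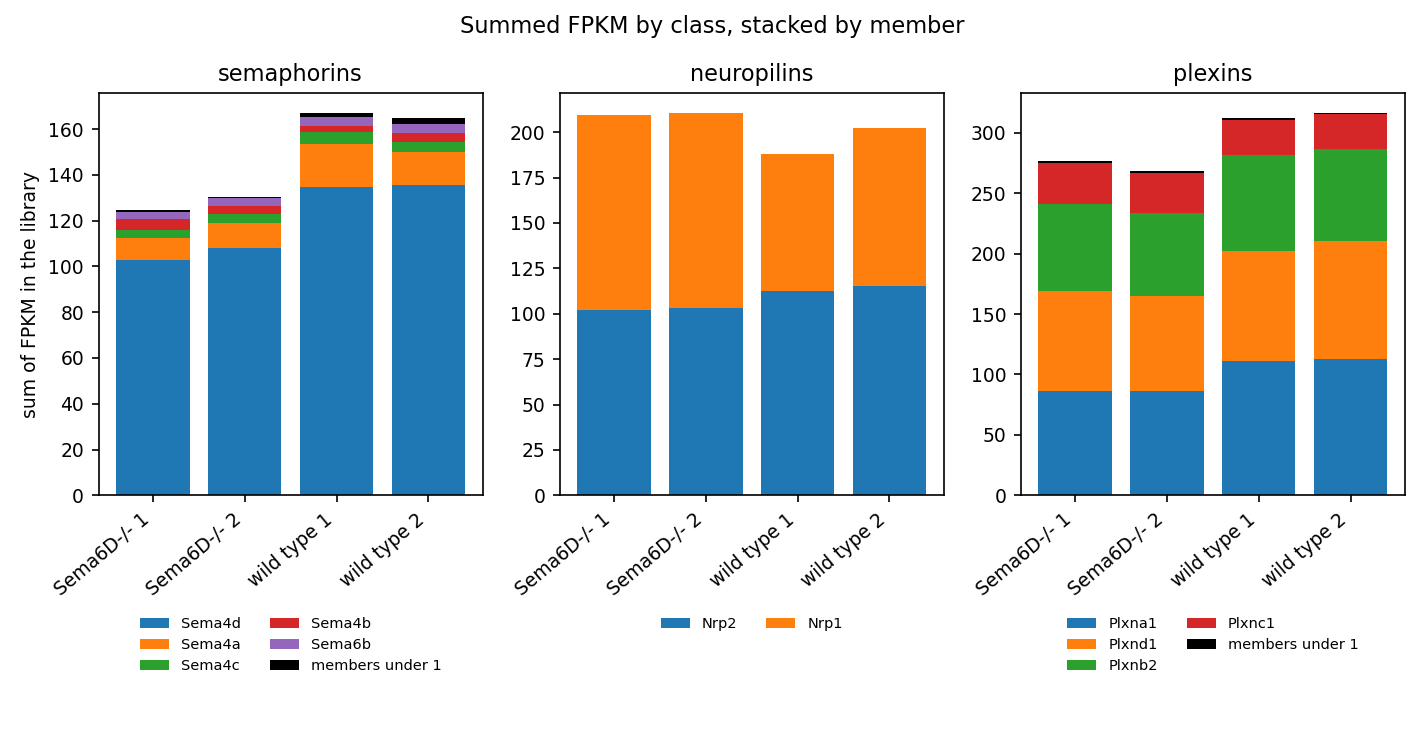
Summed FPKM of the semaphorins, neuropilins and plexins in each library, stacked by member (bars from left to right: Sema6D-/- replicates 1 and 2, wild type replicates 1 and 2). Semaphorin bars reach 124.6 and 130.5 FPKM under Sema6D-/- and 167.3 and 164.9 under wild type, and Nrp1 takes the larger share of the neuropilin bar under Sema6D-/- only.

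Of 9 plexins, 4 were expressed, 1 from each of the A, B, C and D types. Plexin-A1 is a receptor of class 6 semaphorins and, with a neuropilin, of class 3 semaphorins. Plxna1 had 86.7 and 86.7 FPKM in the libraries labelled Sema6D-/-, against 111 and 113 FPKM in those labelled wild type. It fell by 22.7% (difference -0.37 ± 0.04, adjusted p = 0.00937), without overlap. The call was lost without Sema6D-/- replicate 1 (adjusted p = 0.0855) or 2 (adjusted p = 0.0743), and the difference stayed between -0.38 and -0.35. An antisense gene, Gm26811, shares exons with Plxna1. Among the other expressed members, genes on the same strand share exons with Nrp1 (Mir1903), Sema4a (Mir7011) and Plxnc1 (Gm48718). An antisense gene, 1700088E04Rik, shares exons with Micall1. The effect of these overlaps on the values was not tested.

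The other 3 expressed plexins did not overlap between labels, as 56.2% of all genes tested did not, and they did not pass. Plxnd1, whose protein binds Sema3E directly, had 82.2 and 78.2 FPKM under Sema6D-/- and 91.3 and 97.4 under wild type (difference -0.23 ± 0.05, adjusted p = 0.0618). Plxnb2, for a receptor of class 4 semaphorins, had 72.2 and 69.0 FPKM under Sema6D-/- and 79.4 and 75.8 under wild type (difference -0.13 ± 0.05, adjusted p = 0.184). Plxnc1, for the receptor of Sema7A, was the plexin with a positive difference, with 34.4 and 32.9 FPKM under Sema6D-/- and 28.8 and 29.4 under wild type (difference 0.20 ± 0.05, adjusted p = 0.0798). The plexins summed to 277.1 and 268.4 FPKM in the libraries labelled Sema6D-/-, against 312 and 316.8 FPKM in those labelled wild type. Plxna1 took 31.3% and 32.3% of this sum under Sema6D-/- and 35.6% and 35.7% under wild type.

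Plxdc2 showed the widest separation among the expressed members. It encodes a transmembrane protein with a plexin-like domain that is related to tumour endothelial marker 7 and is not a plexin itself. It had 44.3 and 41.9 FPKM in the libraries labelled Sema6D-/-, against 73.4 and 69.3 FPKM in those labelled wild type. It fell by 39.6% (43.1 ± 1.7 FPKM under Sema6D-/- and 71.4 ± 2.9 under wild type, SD, n = 2 each; difference -0.71 ± 0.06, adjusted p = 0.00324). It passed with any 1 library left out (highest adjusted p = 0.0345). Its relative Plxdc1 had 13.5 and 13.3 FPKM under Sema6D-/- and 12.5 and 14.0 under wild type, which overlapped (difference 0.01 ± 0.08, adjusted p = 0.929).

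**Figure D3:**
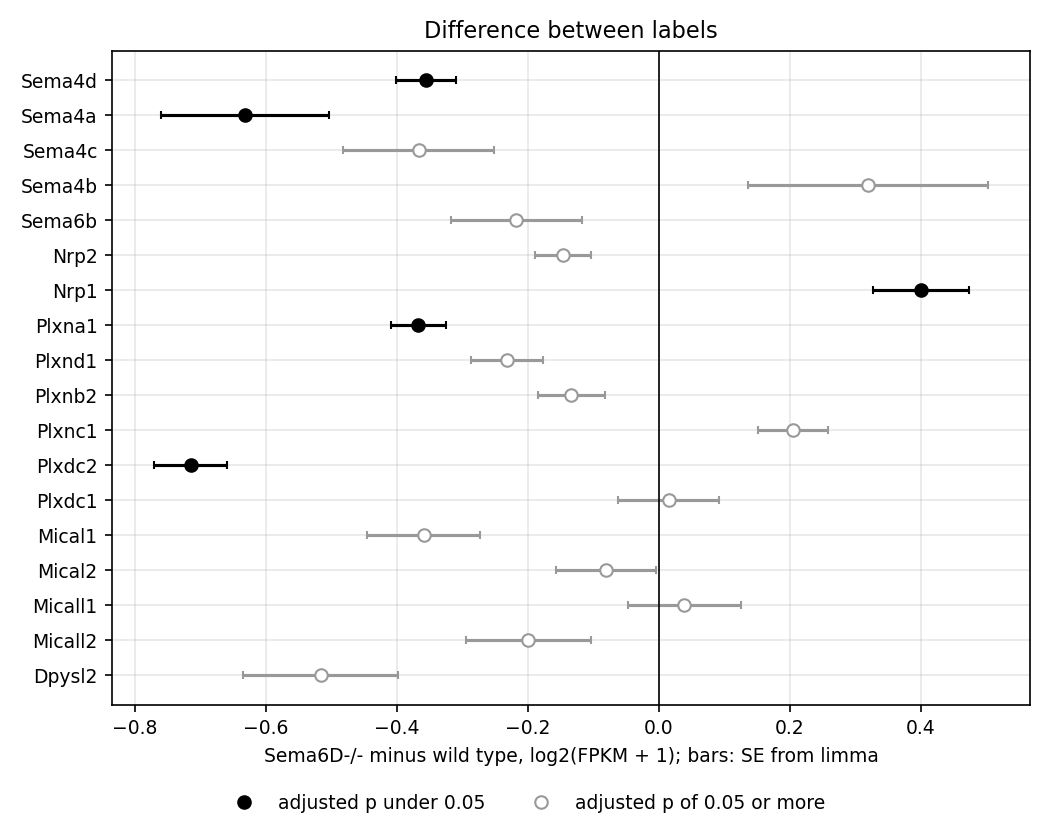
Difference between labels of the 18 members with a mean of at least 1 FPKM, as Sema6D-/- minus wild type on the log2(FPKM + 1) scale with the SE from limma (black filled points, adjusted p under 0.05; grey open points, the others). Plxdc2, Sema4a, Plxna1 and Sema4d lie to the left of 0 and Nrp1 lies to the right at 0.40.

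Of the 5 MICAL and CRMP genes that were tested, 0 passed by limma. Of these, 2 (Mical1 and Dpysl2) had an unadjusted p under 0.05, as did 25.1% of all genes tested. MICAL enzymes oxidise actin and so take filaments apart downstream of plexins. Mical1 had 18.9 and 18.3 FPKM in the libraries labelled Sema6D-/-, against 26.1 and 22.3 FPKM in those labelled wild type, without overlap (difference -0.36 ± 0.09, adjusted p = 0.0649). Smpd2 lies antisense to Mical1 and shares exons with it. Dpysl2, whose product CRMP2 binds tubulin and mediates the Sema3A response of neurons, had 5.13 and 6.56 FPKM under Sema6D-/- and 8.86 and 8.61 under wild type, also without overlap (difference -0.52 ± 0.12, adjusted p = 0.0573). With robust variance moderation, Mical1, Dpysl2 and Plxnd1 passed as well (adjusted p = 0.0411, 0.0336 and 0.0451). Mical2 had 12.4 and 13.9 FPKM under Sema6D-/- and 14.1 and 13.8 under wild type (adjusted p = 0.577). The MICAL-like genes, whose products link Rab GTPases to membrane traffic, did not pass. Micall1 had 10.7 and 12.2 FPKM under Sema6D-/- and 10.8 and 11.4 under wild type (adjusted p = 0.822), and Micall2 had 4.77 and 4.60 under Sema6D-/- and 5.87 and 5.20 under wild type (adjusted p = 0.273).

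**Figure D4:**
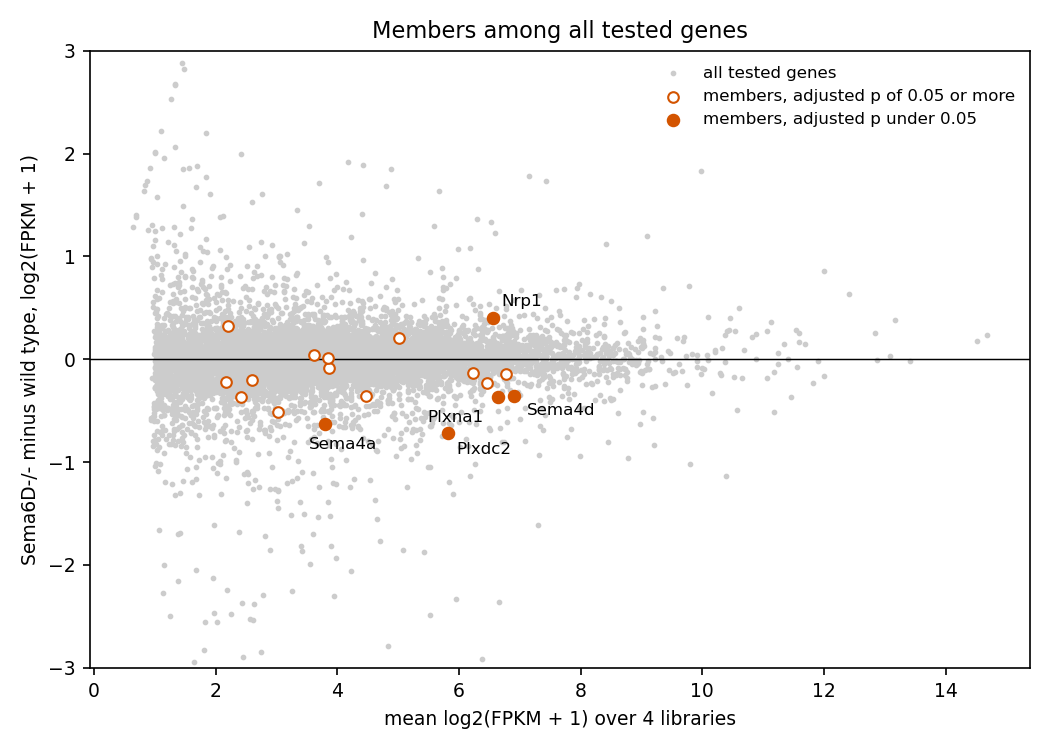
Difference between labels (Sema6D-/- minus wild type, log2(FPKM + 1)) against the mean of log2(FPKM + 1) over the 4 libraries for all 10115 genes tested (grey) and the 18 tested members (orange, filled where adjusted p is under 0.05). All 18 members lie between -0.71 and 0.40, and 35 other genes lie beyond the axis limit of 3 in either direction.

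The members with means under 1 FPKM included the secreted semaphorins. Of the 7 class 3 genes, Sema3c alone had a mean above 0.1 FPKM, and it separated the labels most widely of all members above 0 in every library. It had 0.0927 and 0.0894 FPKM in the libraries labelled Sema6D-/-, against 1.33 and 1.01 FPKM in those labelled wild type, or about 4 and 4 fragments against 67 and 52. The mean was 12.9-fold lower in Sema6D-/-. It lies under the filter, and in the fit of all genes without a filter it did not pass (difference -0.99 ± 0.09, adjusted p = 0.139). Among alternatives chosen after its values were seen, it did not pass without Sema6D-/- replicate 1 or 2 (adjusted p = 0.458 and 0.417), with the replicate number as a block (adjusted p = 0.377) or with a pseudocount of 0.1 (adjusted p = 0.148). Without wild type replicate 1 or 2 the adjusted p was 0.00654 and 0.0092, but there the gene's own spread comes from the Sema6D-/- libraries alone, at about 4 fragments each, and these values lend no support. A filter of 0.5 FPKM was also tried, which Sema3c clears through its wild type libraries alone, so its p there is not a test. Without a filter, 0.494% of genes were higher and 0.426% lower, or 0.920% in all.

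The remaining class 3 genes rested on single fragments. Sema3b, Sema3d, Sema3e and Sema3f were above 0 in 1 or 2 libraries each, at about 1 fragment where listed above 0, and Sema3a and Sema3g were listed at 0 in all. The highest of these values was 0.0378 FPKM, for Sema3b. Sema7a, for a lipid-anchored semaphorin that binds plexin-C1 and β1 integrins, had 0.359 and 0.277 FPKM under Sema6D-/- and 0.459 and 0.962 under wild type, without overlap (adjusted p = 0.727 without a filter). Sema6c had 0.0417 and 0.0403 FPKM under Sema6D-/- and stood at 0 in both wild type libraries. It passed in the fit without a filter (adjusted p = 0.00689), on about 2 fragments in each library labelled Sema6D-/-, so no change is read from it. Sema4f, Sema4g and Sema5a were at or under 0.055 FPKM in every library, and Sema5b was listed at 0.

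Among the 5 low plexins, 0 passed limma without a filter, and 1 (Plxna4) had an unadjusted p under 0.05, against 12.5% of all genes in that fit. Plxna2 had 0.762 and 0.666 FPKM under Sema6D-/- and 0.687 and 0.545 under wild type, and Plxna3 0.359 and 0.299 under Sema6D-/- and 0.358 and 0.219 under wild type. Plxna4, a receptor for class 3 and class 6 semaphorins, had 0.187 and 0.257 FPKM under Sema6D-/- and 0.0894 and 0.0953 under wild type, about 20 and 29 fragments against 11 and 12 (adjusted p = 0.32). Plxnb3 had 0.322 and 0.347 FPKM under Sema6D-/- and 0.277 and 0.203 under wild type (adjusted p = 0.514). Plxnb1, the high-affinity receptor of Sema4D, did not exceed 0.0506 FPKM in any library, about 4 fragments. Plxnb2 was therefore the B-type plexin at a level above 1 FPKM in these cells.

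Of the low MICAL and CRMP genes, Mical3 ranged from 0.328 to 1.03 FPKM under Sema6D-/- and from 0.805 to 0.974 under wild type. Micalcl ranged from 0.754 to 0.921 FPKM under Sema6D-/- and from 0.629 to 1.38 under wild type. Both overlapped between labels. Dpysl3 had 0.247 and 0.239 FPKM under Sema6D-/- and 0.0566 and 0.608 under wild type. Stromal markers summed to 8.32 and 5.48 FPKM over 8 genes under Sema6D-/- and to 5.93 and 11.5 under wild type, so that wild type replicate 2 was highest in both, and their part in the Dpysl3 value was not tested. Crmp1, Dpysl4 and Dpysl5, which are CRMP genes known from neurons, were listed at 0 in all 4 libraries.

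**Figure D5:**
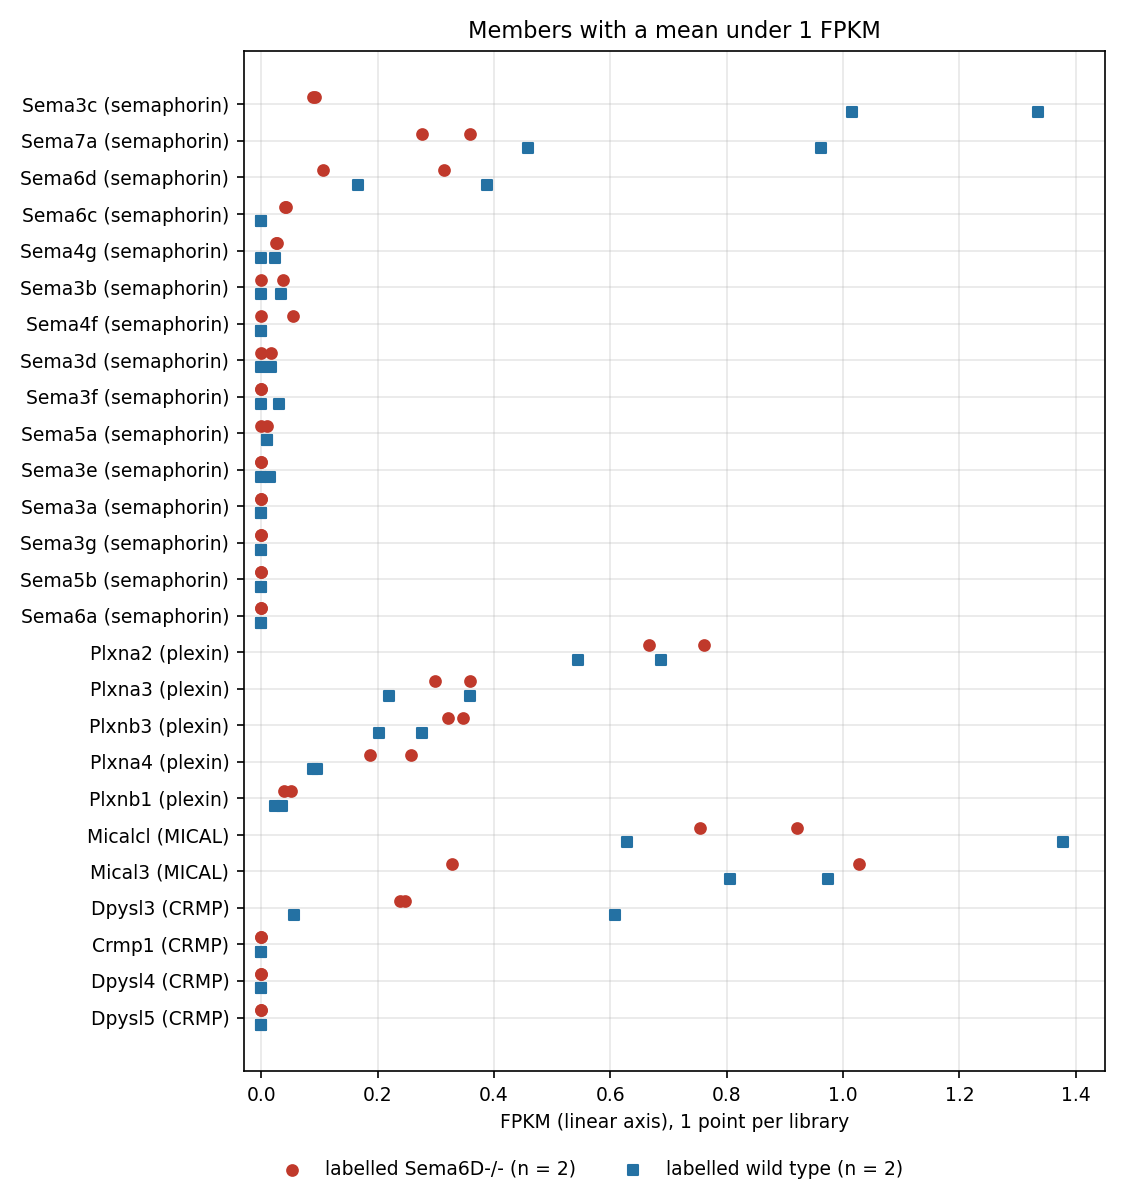
FPKM of the 26 members with a mean under 1 FPKM, on a linear axis, with 1 point per library (red circles, labelled Sema6D-/-, n = 2; blue squares, labelled wild type, n = 2). Sema3c is at 0.0927 and 0.0894 FPKM under Sema6D-/- and at 1.33 and 1.01 under wild type, whereas the points of Sema6d overlap.

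Other genes of the pathway were taken from a list of 66 co-receptors, further semaphorin receptors, GTPases, their regulators, kinases and cytoskeletal adaptors. This list was also chosen with earlier results of these data known. The files held 64 of its genes, of which 50 were tested. In the libraries labelled Sema6D-/-, 3 were higher and 4 lower, or 14.0% against 9.72% of all genes tested, with a median difference of 0.03. Trem2 and Tyrobp, which form a receptor complex with plexin-A1 in mouse dendritic cells and osteoclasts, were higher while Plxna1 was lower. Trem2 had 1149 and 1116 FPKM under Sema6D-/- and 653 and 728 under wild type (difference 0.71 ± 0.06, adjusted p = 0.00496; adjusted p = 0.067 without Sema6D-/- replicate 1). Tyrobp, the signalling adaptor of that complex, had 3417 and 3334 FPKM under Sema6D-/- and 2758 and 2884 under wild type (difference 0.26 ± 0.05, adjusted p = 0.0429). Its call was lost with any 1 library left out (highest adjusted p = 0.275) and after quantile normalization (adjusted p = 0.17).

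Receptors of Sema4D and Sema7A other than plexins were also measured. Cd72, a Sema4D receptor known from B cells, had 514 and 540.4 FPKM under Sema6D-/- and 645 and 626 under wild type and fell (difference -0.27 ± 0.05, adjusted p = 0.0295), a call lost with any 1 library left out (highest adjusted p = 0.192). Itgb1, the integrin β1 chain that binds Sema7A, had 176 and 176 FPKM under Sema6D-/- and 158 and 156 under wild type and did not pass (adjusted p = 0.0745). Met, a receptor tyrosine kinase that couples to B-type plexins, had 0.99 and 1.12 FPKM under Sema6D-/- and 1.39 and 1.56 under wild type and did not pass (adjusted p = 0.299).

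Among the enzymes, Src, a tyrosine kinase of adhesion signalling, had the largest difference on this list. It had 5.77 and 5.74 FPKM in the libraries labelled Sema6D-/-, against 14.4 and 13.5 FPKM in those labelled wild type (difference -1.15 ± 0.07, adjusted p = 0.00203), and it passed with any 1 library left out (highest adjusted p = 0.0337). Flt1, a VEGF receptor and partner of neuropilins, had 22.3 and 24.6 FPKM under Sema6D-/- and 46.9 and 40.1 under wild type (difference -0.86 ± 0.09, adjusted p = 0.00756). Rac2, a GTPase of blood cells, had 117 and 111 FPKM under Sema6D-/- and 165 and 152 under wild type (difference -0.47 ± 0.06, adjusted p = 0.0109). Both lost their calls without either library labelled Sema6D-/- (highest adjusted p = 0.0811 for Flt1 and 0.0875 for Rac2). Rasa1, a Ras GTPase-activating protein gene, had 49.5 and 49.9 FPKM under Sema6D-/- and 41.7 and 40.2 under wild type and rose (difference 0.27 ± 0.05, adjusted p = 0.0295), a call lost with any 1 library left out (highest adjusted p = 0.171). Abl1, a kinase known from the chick heart to bind the Sema6D tail, had 11.7 and 11.4 FPKM under Sema6D-/- and 11.5 and 10.1 under wild type (adjusted p = 0.554).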

How the data were processed

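The deposited values are FPKM that the authors normalized between libraries with Cuffnorm 2.2.1, per the submitters' processing notes. The notes also list mm10, Bowtie2 2.2.3, TopHat2 2.0.13 and SAMtools 0.1.19. Libraries were strand-specific, per the labels' protocols. For the annotation, the strand setting and multi-mapping reads, the treatment is not given in the sources used here. Of 23284 symbols, 25 had no value. Values of log2(FPKM + 1) were compared in R 4.3.3 with limma 3.58.1 (two-sided, eBayes with intensity trend) for genes that averaged 1 FPKM or more, on the 4 libraries grouped by genotype label, with a threshold of 0.05 on the adjusted p. The fit was tested on simulated data. Members under 1 FPKM were tested in a fit without a filter. Fragment numbers are estimates from the steps of low values and GENCODE M21 transcript lengths. Every member is accounted for, and list genes are named where they passed or belong to the receptor partners Tyrobp, Trem2, Cd72, Itgb1, Met and Abl1. The members and lists were chosen with earlier results of these data known. Alternatives were other pseudocounts, filters, scalings, variance settings, a replicate block and leaving out each library.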

Additional observations from a re-analysis of the deposited data

How the results depend on the processing

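With pseudocounts of 0.1 or 5, median-of-ratios scaling, quantile normalization or a filter of 5 FPKM, 1 member was higher and 4 were lower, as reported. Without a filter 1 member (Sema6c) was higher and 1 (Plxna1) lower, among all genes 115 and 99, and among pathway genes 0 and 1. With eBayes without trend 0 members were higher and 2 lower, among all genes 261 and 327, and 1 pathway gene was higher. With robust moderation 7 members were lower. With 1 library left out, between 0 and 1 members were higher and between 1 and 5 lower, against 72 to 276 and 87 to 290 of all genes and 0 to 1 and 1 to 3 pathway genes. The members expressed numbered 23 at a mean of 0.5 FPKM, 15 at 5 FPKM, 18 with 1 FPKM in every library and 18 to 19 with 1 library left out. The titles number the libraries 1 and 2 under both labels, and same-numbered deviations correlated at -0.0183 over genes. This shows no shared shift of same-numbered libraries, but it cannot tell whether they were prepared as pairs. With the library number as a replicate block, 1 member was higher and 3 lower (Sema4a had adjusted p = 0.0748). Among all genes these were 300 and 337, and among pathway genes 1 and 3. Among single genes, the difference changed sign for Micall1 (-0.048 to 0.126 with 1 library left out), Plxdc1 (-0.062 to 0.092) and Sema6d (-0.204 to 0.049), none of which passed in any of these fits. Except where the left-out library removes a sample, the cause was not tested. Members near or under 1 FPKM rest on few fragments, and 2 libraries per label limit the precision.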
